A study of Mus musculus with 6 samples.

Results

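The TGF-beta pathway genes described here are 10 genes of the 34245 in the expression table, taken by their symbols. They comprise the ligands Tgfb1, Tgfb2 and Tgfb3, the receptors Tgfbr1, Tgfbr2 and Tgfbr3, the signal transducers Smad2, Smad3 and Smad4, and the inhibitor Smad7. All 10 symbols were found, each once. Expression was measured by RNA-seq in 3 peripheral T-cell lymphomas (PTCL) that arose in Dnmt3b+/- mice, numbered tumors 1 to 3 as the labels number them. The mice carried 1 conventional knockout allele of Dnmt3b, derived from a floxed allele, and 1 wild-type allele on the FVB/N background, and tumors were taken from lymph nodes when the animals were terminally sick. The labels describe the tumors as independent samples. Whole-genome bisulfite sequencing of Dnmt3b+/- and Dnmt3a-/- PTCL, and RNA-seq of control CD8+ T-cells and Dnmt3a-deficient lymphomas, were not analysed here. With a single group of 3 tumors, no comparison between groups was possible and every value below is a description.

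TGF-beta ligands are secreted in a latent form, held by a propeptide and by latent TGF-beta binding proteins, and act only once released. The active ligand binds the type II receptor encoded by Tgfbr2, which recruits and phosphorylates the type I receptor encoded by Tgfbr1. This receptor phosphorylates Smad2 and Smad3, which enter the nucleus with Smad4 and regulate transcription. In T-cells the pathway restrains proliferation and cytotoxic function and supports regulatory and tissue-resident states.

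Levels are in FPKM on a linear scale, that is, fragments relative to exon length and library depth, so that different genes may be set side by side. Libraries were scaled to 30726570, 18969988 and 20770928 reads for tumors 1, 2 and 3. The reads behind each value were recovered from FPKM, exon length and depth, and their 95% intervals are exact Poisson intervals that cover counting error only. Dnmt3b itself had 0.975, 1.55 and 1.25 FPKM in tumors 1, 2 and 3, on 153, 150 and 133 reads. Reads of both alleles enter the FPKM of Dnmt3b, so it gives no value for the intact allele alone. From reads by exon and from protein, the paper reports that the wild-type allele was still expressed in the tumors.

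The levels of T-cell markers were examined first. All 11 exceeded 0.2 FPKM in every tumor, beside 36.7% of all 34245 genes. All 6 B-cell and all 9 macrophage and monocyte markers did so too, so this threshold does not tell cell types apart. The T-cell markers summed to 1547, 1211 and 1650.2 FPKM in tumors 1, 2 and 3. By mean the most abundant was Cd8b1, a chain of the CD8 co-receptor, at 435, 166 and 443 FPKM. Cd8a had 259, 122 and 218 FPKM, and Cd4 had 28.4, 4.28 and 8.22 FPKM. CD8 transcripts thus exceeded Cd4 in each tumor. The CD3 genes were closer between tumors, with Cd3e at 56.4 to 78.1, Cd3g at 78.8 to 106 and Cd3d at 110.3 to 183 FPKM. Lck, Trac and Trbc2 had means of 192, 187 and 162 FPKM, and Cd5 and Cd247 of 40.4 and 26.4 FPKM.

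The summed markers of other cells differed more between the tumors. In each list the gene with the highest mean is named as leading it. Fibroblast and stroma markers, led by Col1a1, summed to 11.8, 43.3 and 0.371 FPKM. All 7 were lowest in tumor 3 and 5 were highest in tumor 2. In tumor 3 Lum and Pdgfra had 0 reads, and only Col1a1 of the list exceeded 0.2 FPKM in every tumor. Macrophage and monocyte markers, led by Lyz2, summed to 437, 148 and 37.2 FPKM. All 9 of these exceeded 0.2 FPKM in every tumor, 8 of the 9 were highest in tumor 1, and 8 of the 9 were lowest in tumor 3. Regulatory T-cell markers, led by Il2ra, summed to 84.6, 11.8 and 10.6 FPKM, and all 5 were highest in tumor 1. B-cell markers, led by Cd79a, summed to 59.6, 14.0 and 106.1 FPKM and all 6 were lowest in tumor 2. Pancreatic acinar markers, led by Ctrb1, summed to 87.0, 440.3 and 0.657 FPKM, with all 8 lowest in tumor 3, where Ctrb1 and Cpa1 had 0 reads. For comparison, of all 12559 genes above 0.2 FPKM in every tumor 24.7%, 37.6% and 37.7% were lowest in tumors 1, 2 and 3. In turn, 50.3%, 34.0% and 15.7% of them were highest in these tumors. The marker counts above are over all genes with a read and so have another basis. Only 1 of 7 stroma, 0 of 8 acinar and 3 of 5 regulatory T-cell markers pass the filter of the comparison. Fewer cells of a type and less RNA per cell cannot be told apart in these bulk samples. The sums of the remaining lists did not exceed 14.2 FPKM. Endothelial markers, led by Pecam1, summed to 13.7, 13.1 and 5.18 FPKM. Epithelial markers, led by Cdh1, summed to 14.2, 2.78 and 0.937 FPKM, with 0 reads of Krt19 in every tumor. Cdh1 made up most of the sum in tumor 1, at 13.7 FPKM. Of the 4 epithelial markers with a read, Cdh1 was highest in tumor 1 and the other 3 in tumor 2. Platelet and megakaryocyte markers, led by Gp1ba, summed to 2.13, 3.45 and 1.08 FPKM, with 0 reads of Ppbp and Gp9 in every tumor. The plot of these sums shows tumor 3 at the bottom for most lists of cells other than lymphocytes.

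**Figure D1:**
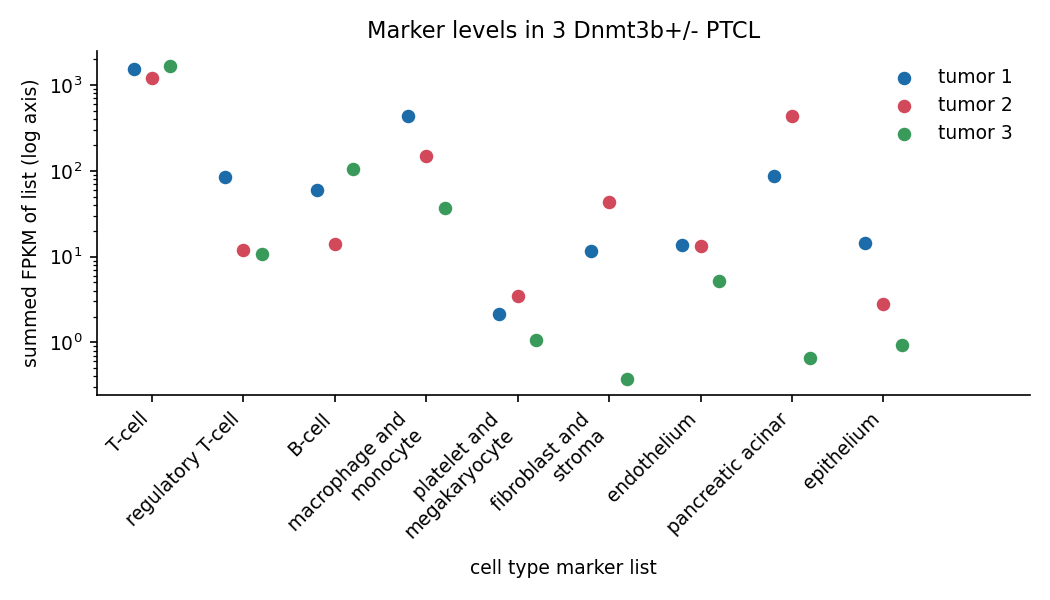
Summed FPKM (log axis) of each cell type marker list, with 1 point per tumor. T-cell sums lie between 1211 and 1650.2 FPKM, whereas fibroblast and stroma sums run from 0.371 in tumor 3 to 43.3 in tumor 2.

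Of the 10 pathway genes, 8 exceeded 0.2 FPKM in every tumor, beside 36.7% of all 34245 genes. The 2 that did not were the ligands Tgfb2 and Tgfb3. By mean FPKM the order was Tgfbr2, Smad3, Tgfb1, Smad4, Tgfbr3, Smad2, Tgfbr1, Smad7, Tgfb3 and Tgfb2. The ranges of the 3 tumors overlapped for 7 of the 9 pairs of neighbours in this order. The steps without overlap were those from Smad7 to Tgfb3 and from Tgfb3 to Tgfb2. The 8 genes above the threshold therefore form a run whose neighbours are not separated by their spread, and the other 2 ligands stand below it.

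**Figure D2:**
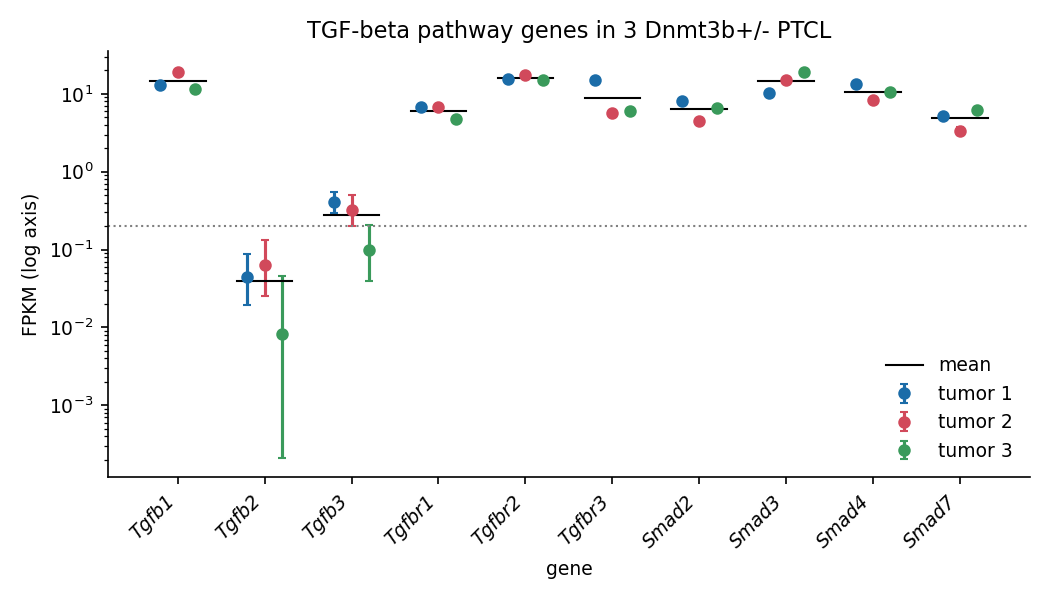
FPKM (log axis) of the 10 pathway genes, with points for tumors 1, 2 and 3, bars for the exact Poisson 95% interval of the reads, black lines for the mean and a dotted line at 0.2 FPKM. The means run from 0.0390 FPKM for Tgfb2 to 16.0 FPKM for Tgfbr2.

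Tgfb1, the ligand that prevails in the immune system, was nearly the sole ligand transcript. Tgfb1 (ENSMUSG00000002603) spans 25687002 to 25705077 on the plus strand of chromosome 7 of mm10. The FPKM of Tgfb1 was 13.2, 19.3 and 11.6 in tumors 1, 2 and 3, a mean of 14.7 ± 4.05 (SD, n = 3), on 2040, 1844 and 1216 reads. Tumor 2 was highest, and tumors 1 and 3 were close to each other. With median-of-ratios factors Tgfb1 was lowest in tumor 1 instead, at 12.0, 19.8 and 12.4 in tumors 1, 2 and 3. Summed stroma and pancreatic acinar markers were also highest in tumor 2, and were lowest in tumor 3. Their part in the level of Tgfb1 was not tested. By its mean, Tgfb1 ranked 2315 of 34245 genes. As a share of the FPKM summed over the 3 ligands, Tgfb1 made up 96.7%, 98.0% and 99.1% in tumors 1, 2 and 3. The highest level of Tgfb1 was 1.66 times the lowest.

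Tgfb2 (ENSMUSG00000039239), on the minus strand of chromosome 1 of mm10 from 186622792 to 186705989, was at the edge of detection. It had 8, 7 and 1 reads in tumors 1, 2 and 3, which give 0.0450, 0.0637 and 0.00831 FPKM. The ratio of tumor 2 to tumor 3 was 7.66, with a counting interval from 0.985 to 345, so a difference was not detectable at this depth. Tgfb3 (ENSMUSG00000021253), on the minus strand of chromosome 12 from 86056745 to 86079041, had 0.404, 0.327 and 0.0996 FPKM on 42, 21 and 7 reads. Its level in tumor 1 was 4.06 times that in tumor 3, with a counting interval from 1.81 to 10.7. Tumors 1 and 2 were alike and tumor 3 was low. Exons of Tgfb2 share 124 bases, and those of Tgfb3 up to 257 bases, with transcripts annotated on the opposite strand. Whether reads were counted by strand is not given in the sources used here, so the few reads of these ligands cannot be assigned to a strand. The stroma markers given above were also lowest in tumor 3, and their part in the values of Tgfb2 and Tgfb3 was not tested.

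The promoters of the most and the least abundant ligand are shown because they differ in CG content. They are RefSeq sequences of GRCm38.p6, from 250 bases before to 50 bases after the start, with CG dinucleotides in capitals. The region for Tgfb1 is chr7:25686752-25687051 on the plus strand, and that for Tgfb2 is chr1:186705940-186706239 on the minus strand.
Tgfb1: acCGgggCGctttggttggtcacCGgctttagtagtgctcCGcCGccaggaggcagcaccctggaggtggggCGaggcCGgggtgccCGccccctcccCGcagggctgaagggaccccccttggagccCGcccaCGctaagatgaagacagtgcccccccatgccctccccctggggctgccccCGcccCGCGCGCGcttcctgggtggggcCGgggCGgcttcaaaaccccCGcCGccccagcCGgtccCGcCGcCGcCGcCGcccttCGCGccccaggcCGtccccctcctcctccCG
Tgfb2: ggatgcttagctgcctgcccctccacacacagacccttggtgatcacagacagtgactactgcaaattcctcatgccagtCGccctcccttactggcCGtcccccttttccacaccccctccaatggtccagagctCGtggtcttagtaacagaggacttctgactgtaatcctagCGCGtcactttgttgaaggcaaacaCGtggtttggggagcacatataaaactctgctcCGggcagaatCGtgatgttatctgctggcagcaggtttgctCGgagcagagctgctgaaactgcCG
The Tgfb1 window holds 30 CG dinucleotides, more than 88.3% of the 32851 promoters in the table, whose median is 7. The Tgfb2 window holds 10, more than 56.5% of them. Of the other members, Smad3 had 25 CG dinucleotides, Tgfbr2 had 15, and the 2 listed starts of Tgfbr1 had 34 and 3. The motif CAGAC, which contains the core bound by SMAD proteins, was searched on both strands. It occurred 2 times in the Tgfb2 window and 1 time each in those of Tgfbr2 and the second start of Tgfbr1, and not in the windows of Tgfb1, Smad3 and the first start of Tgfbr1. At least 1 match occurs in 49.6% of all promoters of this length. A match describes the letters and is not evidence of binding. RefSeq windows were matched for 5 of the 10 members, and Tgfb3, Tgfbr3, Smad2, Smad4 and Smad7 were not matched.

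Other genes hold and release the latent ligand. Of 11 genes for latency and activation, 3 exceeded 0.2 FPKM in every tumor, beside 36.7% of all genes. The most abundant was Nrros, which tethers latent TGF-beta on myeloid cells, with 17.3, 26.9 and 18.1 FPKM in tumors 1, 2 and 3. Furin, the protease that cleaves the ligand propeptide, had 10.2, 13.3 and 5.92 FPKM. Itgav, the alpha chain of the activating integrins, had 3.24, 1.44 and 1.57 FPKM, while of its partners Itgb6 had 0 reads and Itgb8 had 91, 1 and 20. Nrros and Furin were highest in tumor 2, as Tgfb1 was, and Itgav and Itgb8 were highest in tumor 1. The binding protein Ltbp4 had 0.247, 2.57 and 0.0521 FPKM, and the activator Thbs1 had 0.434, 2.27 and 0.0238 FPKM. Lrrc32, which presents latent ligand on regulatory T-cells and also stands in that marker list, had 84, 34 and 0 reads. With 3 reads set in place of the count of 0, tumor 1 stood 18.9-fold higher than tumor 3. The counting error of tumor 1 does not enter this ratio. Itgb8 and these last 3 genes were chosen after their values were seen. Summed stroma markers were highest in tumor 2 and lowest in tumor 3, as Ltbp4 and Thbs1 were, and the part of other cells in these values was not tested.

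Among the receptors Tgfbr1, Tgfbr2 and Tgfbr3, Tgfbr2 was the most abundant and the steadiest. Tgfbr2 (ENSMUSG00000032440) lies on the minus strand of chromosome 9 of mm10, from 116084293 to 116175360. It had 15.4, 17.6 and 15.0 FPKM in tumors 1, 2 and 3, a mean of 16.0 ± 1.41 (SD, n = 3), on 3873, 2732 and 2546 reads. Its highest tumor was 1.17 times its lowest, and 7.86% of the 12559 genes above 0.2 FPKM in every tumor had a smaller ratio. With median-of-ratios factors the ratio was 1.29, tumor 1 was lowest instead of tumor 3 and 19.3% of genes had a smaller ratio, and with a sum of 1000000 FPKM the ratio was 1.27 and the share 10.7%. Tgfbr1 (ENSMUSG00000007613), on the plus strand of chromosome 4 from 47353222 to 47414931, had 6.70, 6.83 and 4.76 FPKM, a mean of 6.10 ± 1.16 (SD, n = 3), on 1346, 846 and 646 reads. Tumors 1 and 2 were level and tumor 3 was lower. Within each tumor Tgfbr2 exceeded Tgfbr1, by 2.30, 2.58 and 3.15 times.

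Tgfbr3 (ENSMUSG00000029287) encodes betaglycan, a co-receptor that presents ligand to the type II receptor, and lies on the minus strand of chromosome 5 from 107106570 to 107289629. It varied most of the 8 genes above the threshold, with values of 15.2, 5.65 and 6.08 FPKM on 3048, 701 and 826 reads. Exons of Tgfbr3 share 297 bases with another transcript annotated on the same strand, and how reads there were assigned is not known. Tumor 1 stood apart, and tumors 2 and 3 lay close together. The ratio of Tgfbr3 to Tgfbr2 within a tumor, which does not depend on library scaling, was 0.984, 0.321 and 0.406. Macrophage and regulatory T-cell markers were also highest in tumor 1, at the sums given above, and their part in the level of Tgfbr3 was not tested.

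Of 11 other receptors and co-receptors of the superfamily, 5 exceeded 0.2 FPKM in every tumor, where 36.7% of all genes did. Acvr1b, a type I receptor for activin that also signals through Smad2 and Smad3, was the most abundant by mean, at 5.74, 6.33 and 5.98 FPKM. The activin type II receptor Acvr2a had 4.60, 2.31 and 1.77 FPKM. Acvrl1, a type I receptor known from endothelium, had 6.66, 1.31 and 0.373 FPKM and the widest spread of these 5, while Bmpr1b had 0 reads. Acvr1b was level across tumors, whereas Acvr2a and Acvrl1 were highest in tumor 1. Summed macrophage and regulatory T-cell markers were highest in tumor 1 as well. Their part and that of endothelial cells in the level of Acvrl1 were not tested.

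Only 1 of the 8 pathway genes above the threshold, Tgfbr3, had a highest tumor at least 2 times its lowest, beside 35.1% of all genes with the same filter. The 8 ratios ran from 1.17 to 2.68 with a median of 1.73, and the median over all 12559 genes was 1.69. The spread of the pathway genes was thus near that of genes at large. The count depends on scaling. The median gene lay 0.14 above its own mean in tumor 1 on the log2 scale, and -0.03 and -0.09 from it in tumors 2 and 3. After rescaling by median-of-ratios factors, Smad3 also reached the limit with 2.18, and Tgfbr3 had 2.38. Without tumor 1, 0 of 8 genes reached it, beside 16.0% of all genes.

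**Figure D3:**
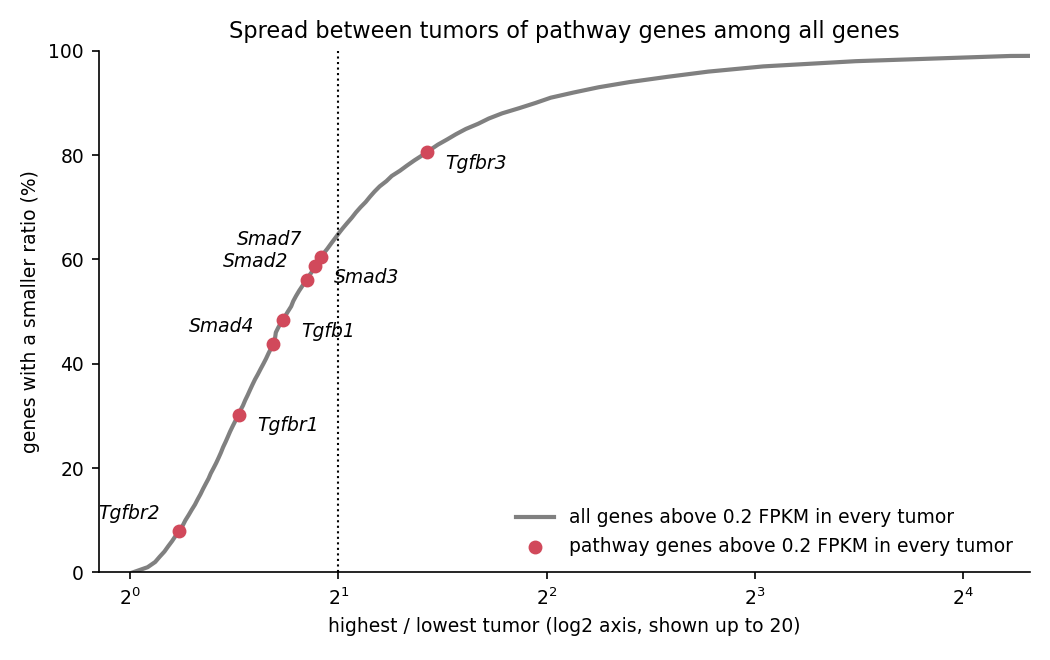
Ratio of the highest to the lowest tumor (log2 axis) against the percent of genes with a smaller ratio, for the 12559 genes above 0.2 FPKM in every tumor (grey line), with the 8 pathway genes as points. Tgfbr2 lies at 7.86% and Tgfbr3 at 80.6%, and the dotted line marks a ratio of 2.

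The receptor-regulated SMADs are Smad2 and Smad3. Smad3 (ENSMUSG00000032402) spans 63646767 to 63757994 on the minus strand of chromosome 9 of mm10. Its values in tumors 1, 2 and 3 were 10.2, 15.1 and 18.9 FPKM, a mean of 14.7 ± 4.35 (SD, n = 3), on 1733, 1590 and 2170 reads. Smad2 (ENSMUSG00000024563) had 8.01, 4.46 and 6.53 FPKM, a mean of 6.33 ± 1.79 (SD, n = 3). Its reads, about 2162, 742 and 1190, did not come out whole and are approximate. Smad3 was lowest in tumor 1, where Smad2 was highest. Smad3 exceeded Smad2 in each tumor, by 1.27, 3.39 and 2.89 times. Smad4 (ENSMUSG00000024515), the shared partner of both, had 13.3, 8.27 and 10.6 FPKM, a mean of 10.7 ± 2.52 (SD, n = 3), on 1516, 582 and 814 reads. Smad2 and Smad4 were both highest in tumor 1 and lowest in tumor 2, also under median-of-ratios factors and with each tumor rescaled to sum to 1000000 FPKM.

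Smad7 (ENSMUSG00000025880), which blocks the type I receptor and is itself induced by TGF-beta, had 5.17, 3.31 and 6.25 FPKM, a mean of 4.91 ± 1.49 (SD, n = 3), on 718, 284 and 587 reads. Tumor 3 was highest and tumor 2, where Tgfb1 was highest, was lowest. Summed B-cell markers had the same order of tumors, and their part in the level of Smad7 was not tested. Set against the sum of Smad2 and Smad3 in the same tumor, Smad7 stood at 0.284, 0.169 and 0.246. This ratio and those between receptors and between SMADs were chosen after values were seen. Smad2, Smad4 and Smad7 all lie on chromosome 18.

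Of the 8 genes, 3 were highest in tumor 1, beside 50.3% of all 12559 genes. A further 3 were highest in tumor 2, beside 34.0%, and 2 in tumor 3, beside 15.7%. The genes highest in tumor 1 were Tgfbr3, Smad2 and Smad4, those in tumor 2 were Tgfb1, Tgfbr1 and Tgfbr2, and those in tumor 3 were Smad3 and Smad7. With each tumor rescaled to sum to 1000000 FPKM, Tgfbr1 was highest in tumor 1 instead. No tumor was high for the pathway as a whole.

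**Figure D4:**
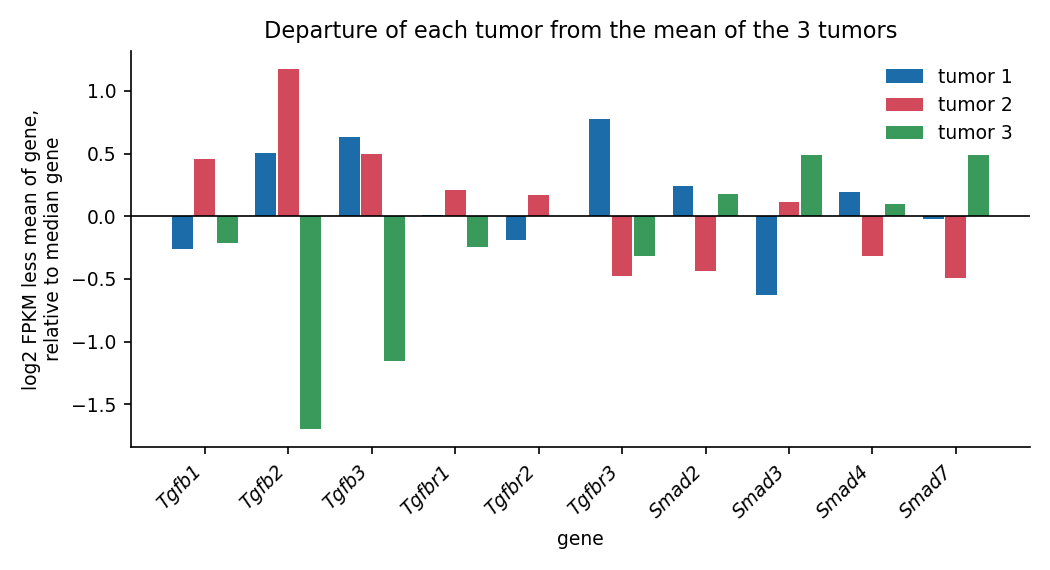
Departure of each tumor from the gene's mean log2 FPKM, relative to the median departure of the 12559 genes above 0.2 FPKM in every tumor, for the 10 pathway genes. Tgfbr3 stood at 0.77 in tumor 1 and Smad3 at -0.63, while Tgfb2 and Tgfb3 stood at -1.70 and -1.16 in tumor 3, the former on 1 read.

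Among the SMADs of the BMP branch, Smad5 had 8.13, 4.52 and 3.43 FPKM and Smad1 had 1.28, 0.572 and 1.39 FPKM in tumors 1, 2 and 3. The inhibitory Smad6 had 2, 1 and 0 reads, and Smad9 had 0 reads in every tumor. Smad7 was therefore the inhibitory SMAD that was detected above 0.2 FPKM. Of 17 SMAD regulators, 14 exceeded 0.2 FPKM in every tumor and 6 of these had a ratio of at least 2, with a median ratio of 1.81. Among all genes 36.7% passed that threshold, 35.1% of those reached that ratio and the median was 1.69. Strap, which stabilises the complex of Smad7 with the type I receptor, had 21.7, 14.8 and 15.9 FPKM. Fkbp1a, which holds the type I receptor inactive, had 22.9, 14.3 and 12.9 FPKM, and the co-repressor Ski had 7.28, 6.84 and 9.08 FPKM. Pmepa1, a feedback inhibitor that sequesters Smad2 and Smad3, varied most of these 14, with 3.73, 10.8 and 1.41 FPKM. It was highest in tumor 2 and lowest in tumor 3, as the summed stroma and acinar markers were, and their part in its level was not tested.

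Of the 20 genes that TGF-beta is known to induce, 17 exceeded 0.2 FPKM in every tumor, beside 36.7% of all genes. Of these, 11 had a highest tumor at least 2 times the lowest, beside 35.1%, and the median ratio of the 17 was 3.13 beside 1.69. They did not share an order of tumors, since tumors 1, 2 and 3 had the highest value of 5, 8 and 4 of them. Among all genes with the same filter, 50.3%, 34.0% and 15.7% were highest in these tumors. Junb, an AP-1 factor, was the most abundant and level, at 35.4, 37.1 and 31.0 FPKM. Id3 had 10.6, 15.1 and 5.54 FPKM and Gadd45b had 6.90, 12.6 and 6.91 FPKM. Both were highest in tumor 2. The collagen gene Col1a1 had the widest spread of the 17, with 1.63, 15.5 and 0.315 FPKM, and is also the leading stroma marker. Itgae, the CD103 integrin chain of tissue-resident T-cells, had 12.3, 4.28 and 2.26 FPKM, and the matrix gene Tgfbi had 13.9, 5.45 and 1.11 FPKM. Both were highest in tumor 1 and were chosen after their values were seen. The part of stroma and macrophage transcripts in the target values was not tested.

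TGF-beta is also known to lower a set of effector genes in CD8 T-cells, and all 8 of these exceeded 0.2 FPKM in every tumor, beside 36.7% of all genes. Gzmb, a granule protease, had 463, 702 and 134 FPKM, and the pore protein Prf1 had 25.1, 42.9 and 56.2 FPKM. Gzma had 63.4, 10.6 and 3.59 FPKM, the widest spread of the 8, and Myc had 55.2, 38.0 and 30.4 FPKM. The order of the tumors differed between genes, since Gzmb was highest in tumor 2, Prf1 in tumor 3 and Gzma and Myc in tumor 1. Summed macrophage and regulatory T-cell markers had the order of Gzma and Myc, and summed stroma and acinar markers that of Gzmb. Singly, 3 of the 5 regulatory T-cell markers did not have this order and were lowest in tumor 2. The part of other cells in these values was not tested. Of the 8, 7 had a ratio of at least 2, with a median of 5.04, beside 35.1% and 1.69 for all genes.

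Genes of the branch that runs through TAK1 and kinases rather than SMADs were all expressed. All 9 exceeded 0.2 FPKM in every tumor, 2 had a ratio of at least 2 and the median was 1.66, again beside 36.7%, 35.1% and 1.69. Akt1 had 29.9, 29.4 and 24.8 FPKM, Rhoa had 36.0, 18.2 and 28.2 FPKM, and Mapk14, which encodes p38 alpha, had 19.1, 12.1 and 14.6 FPKM. Mapk8, the JNK1 gene, had 2.47, 1.17 and 2.11 FPKM and the widest spread of the 9. Over all 8 pathway lists, which hold 108 genes including Smad7, 58 exceeded 0.2 FPKM in every tumor and 36 of these, or 62.1%, had a ratio of at least 2. The median ratio of the 58 was 2.25. Among all 12559 genes, 35.1% reached a ratio of 2 and the median was 1.69. Leaving out a tumor can only lower a ratio. Without tumors 1, 2 and 3 in turn, 24, 20 and 31 list genes reached 2, or 40.7%, 33.9% and 44.9%, beside 16.0%, 18.2% and 26.0% of all genes. The plot by list holds only genes above 0.2 FPKM in every tumor. Medians of the latency genes, the SMAD regulators and the non-SMAD branch lie within the grey band, and those of other lists right of it. The latency median rests on 3 of 11 genes. Among those left out, Ltbp1, Ltbp2, Ltbp3, Ltbp4, Itgb8 and Thbs1 had ratios from 13.8 to 95.6, some on few reads.

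**Figure D5:**
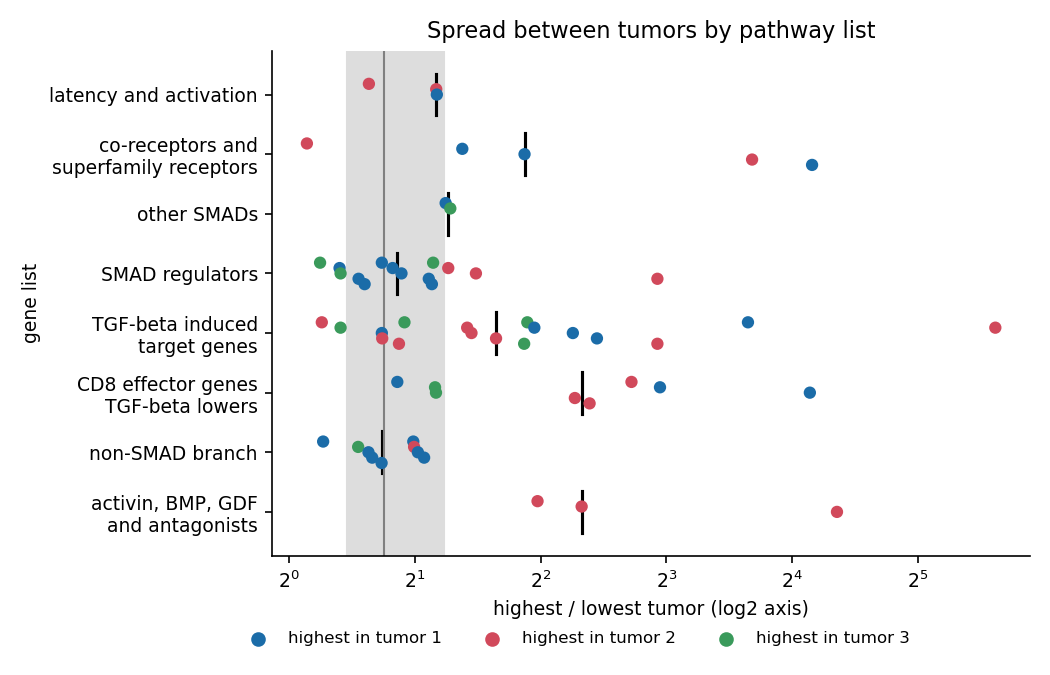
Ratio of the highest to the lowest tumor (log2 axis) of the genes above 0.2 FPKM in every tumor in each pathway list, colored by the highest tumor, with black lines for list medians. The grey band spans the quartiles of all 12559 genes, 1.37 to 2.35, around their median of 1.69.

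The genes nearest in pattern were sought over the 3 tumors by the distance between log2 FPKM less the mean, among 6002 genes with at least 5 FPKM on average and 30 reads in every tumor. For Tgfb1 they were Pdcd7, Atxn2l and Mapkapk3, and Pdcd7 had 5.29, 7.77 and 4.64 FPKM. For Tgfbr2 they were Dhx38, Rnf220 and Traf2, and Dhx38 had 9.56, 11.0 and 9.37 FPKM. For Smad7 they were Isoc1, 2010107E04Rik and Rpl4, and Isoc1 had 11.2, 6.99 and 13.8 FPKM. Within a distance of 0.1 there were 63 genes for Tgfb1, 184 for Tgfbr2 and 14 for Smad7. How often such likeness arises by chance with 3 values per gene was not tested, and it describes these tumors only.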

How the data were processed

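RNA-seq was performed on 3 Dnmt3b+/- PTCL. After trimming, reads were mapped by the authors to the mm10 genome using STAR, and SeqMonk was used for quantitation. What the authors deposited for each tumor are linear FPKM. Members and lists were chosen with earlier results of these data known. Where a symbol had several rows, the most abundant was taken. A gene with no read is listed at the value of 0.9 read, from which depth followed, and reads were obtained with exon lengths of GENCODE M21 for 99.6% of genes. Of these genes, 92.8% gave a whole number within 0.05 read, or the value of 0.9 read, in each tumor taken alone. Genes without a read, which pass by definition, were 42.0%, 45.6% and 48.0% in tumors 1, 2 and 3. Depths of 30726570, 18969988 and 20770928 reads set the counting error.

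Genes named are the 10 members, Dnmt3b and the T-cell markers, each pathway list of up to 5 genes, and otherwise its 3 highest genes, the 1 with the highest ratio between tumors and genes without a read. Of other marker lists, the most abundant gene and genes without a read are named, and for 3 members the 3 nearest genes. Genes outside this rule were chosen after their values were seen. No test was made, since there was 1 group. Alternatives were other FPKM thresholds, ratios, pseudocounts and scalings, and each tumor left out. Steps were tested on simulated data. Software was SciPy 1.17.1, NumPy 2.4.6, pandas 2.3.3, matplotlib 3.10.9 and Python 3.11.15.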

Additional observations from a re-analysis of the deposited data

How the results depend on the processing

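The count of members above 0.2 FPKM in every tumor stayed between 8 and 9 under thresholds of 0.1 and 1 FPKM, both scalings and with each tumor left out. It was 9 without tumor 3 and with each tumor rescaled to sum to 1000000 FPKM, where Tgfb3 passed. The latter rescaling raises every value, so 0.2 is a looser limit there. The count of members with a highest tumor at least 2 times the lowest was 1 and depended on the settings. It was 6 with a ratio of 1.5, 0 with a ratio of 3, 3 with no filter on low values, 2 with median-of-ratios factors (Tgfbr3 and Smad3) and 2 with a sum of 1000000 (Tgfbr3 and Tgfb3). With each tumor left out it ran from 0, without tumor 1, to 1. Pseudocounts of 0.1 and 1 FPKM left it at 1. Tgfb1 made up 97.9% of the mean ligand FPKM, and 97.5% to 98.4% with a tumor left out. The mean of Tgfbr3 was 8.96 FPKM, and 5.86 without tumor 1. The ratio of Tgfbr2 was 1.17, below which lay 7.86% of genes, and 1.29 (19.3%) and 1.27 (10.7%) under the scalings. Of 20 rescaled ratios of single members, 11 left their counting intervals. The count of pathway list genes above 0.2 FPKM in every tumor was 58, 48 at 1 FPKM, and 59, 59 and 69 without tumors 1, 2 and 3. The count of these with a ratio of at least 2 was 36, and 20 to 31 with a tumor left out, which can only lower a ratio. Leaving out tumors for the lists and for all genes, a background of genes with at least 30 reads in every tumor, where 31.2% reached a ratio of 2, and these shares for Tgfbr2 under the scalings were added after seeing the data. No paired analysis was possible because the values come from 1 group. Depth limits what can be said of Tgfb2, which had 8, 7 and 1 reads, and the cause of other changes was not tested.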

Other observations

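Of 31 genes for activin, BMP and GDF ligands and their antagonists, 3 exceeded 0.2 FPKM in every tumor, beside 36.7% of all genes. Gdf11, a ligand that signals through Smad2 and Smad3, had 2.68, 10.5 and 6.85 FPKM in tumors 1, 2 and 3. The inhibin alpha gene Inha had 2.27, 11.4 and 3.04 FPKM, and Fstl1 had 0.616, 12.6 and 2.33 FPKM. All 3 were highest in tumor 2 and lowest in tumor 1, as 34.0% and 24.7% of all genes above 0.2 FPKM in every tumor were. Of the 24 list genes with a read in any tumor, 5, 18 and 1 were highest in tumors 1, 2 and 3. Tumors 1, 2 and 3 were lowest for 5, 3 and 16 of these 24. The counts over the 24 have another basis than the shares of all genes above, and no share was computed on it. Some rest on few reads, such as Gdf9, highest in tumor 2 by FPKM on 3, 2 and 0 reads. Bmp5, Gdf5, Gdf7, Nodal, Lefty2, Mstn and Nog had 0 reads in every tumor. Gdf11 thus had a mean of 6.68 ± 3.93 FPKM (SD, n = 3), below the 14.7 FPKM of Tgfb1 and above the 0.277 FPKM of Tgfb3. Summed stroma and pancreatic acinar markers were highest in tumor 2 and lowest in tumor 3, and their part in these values was not tested.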
